A study of Mus musculus with 18 samples.

Results

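The AP-1 transcription factors and Atf3 were followed in the livers of mice given carbon tetrachloride (CCl4), with or without Pien Tze Huang, a traditional Chinese medicine preparation. The 10 genes were taken by symbol: the Fos subunits Fos, Fosb, Fosl1 and Fosl2, the Jun subunits Jun, Junb and Jund, and the related factors Atf3, Batf and Maff. All 10 were present among the 54752 genes of the deposited table, and all 10 passed the filter on low counts that left 21840 genes for testing. The animals were male C57BL/6 mice, 6 weeks old at the start, 45 in all with 15 assigned to each of 3 groups. Control mice received olive oil by intraperitoneal injection 2 times a week and water by gavage each day. CCl4 mice received CCl4 on that injection schedule with the same daily water, and the labels call this group a liver cancer model. The group written CCl4_PTH received CCl4 in the same way with Pien Tze Huang by daily gavage in place of water. The labels abbreviate the preparation both as PTH and as PZH, and it was taken here as 1 preparation. Livers of 6 mice a group were sequenced at week 22, which gave 18 libraries, each of them named by its group and number. The doses, the time between the last injection and tissue collection, and whether the pieces held tumour are not given in the sources used here. No group received Pien Tze Huang without CCl4, so its effect on an uninjured liver is not part of the comparisons.

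AP-1 is a dimer of basic leucine zipper proteins. A Fos protein cannot form a stable dimer with another Fos protein and pairs with a Jun protein, whereas Jun proteins also pair among themselves and with members of the ATF family. Many of these genes are immediate early genes: growth factor, stress and cytokine signals carried by MAP kinases switch on their transcription within minutes, without new protein synthesis, and the transcripts are soon degraded. In mouse liver, Jun is known for its part in hepatocyte proliferation after partial hepatectomy and in the start of liver tumours, and Atf3 is a stress-induced factor that responds to many forms of tissue damage.

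The promoters of 4 members are shown because they carry the letters through which stress and cyclic AMP signals are known to act on such genes. Each stretch is 150 bases ending just before a transcription start of RefSeq on GRCm38.p6, written 5′ to 3′ on the strand of the gene. Fos is at chr12:85473740-85473889 on the plus strand, Jun at chr4:95052223-95052372 on the minus strand, Atf3 at chr1:191183334-191183483 on the minus strand, and the second start of Maff at chr15:79347370-79347519 on the plus strand. Capitals mark a cyclic AMP response element (CRE, TGACGTCA) or that element with 1 changed letter, its core (TGACG), and the TATA box letters TATAAA.
Fos: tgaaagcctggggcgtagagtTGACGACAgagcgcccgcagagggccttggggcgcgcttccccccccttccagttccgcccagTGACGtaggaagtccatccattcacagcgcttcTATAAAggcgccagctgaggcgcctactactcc
Jun: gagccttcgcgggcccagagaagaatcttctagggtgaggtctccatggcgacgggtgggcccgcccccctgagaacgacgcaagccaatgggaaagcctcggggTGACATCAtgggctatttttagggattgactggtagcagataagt
Atf3: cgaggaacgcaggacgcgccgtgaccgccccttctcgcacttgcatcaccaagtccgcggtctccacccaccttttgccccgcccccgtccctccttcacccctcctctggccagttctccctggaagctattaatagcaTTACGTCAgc
Maff: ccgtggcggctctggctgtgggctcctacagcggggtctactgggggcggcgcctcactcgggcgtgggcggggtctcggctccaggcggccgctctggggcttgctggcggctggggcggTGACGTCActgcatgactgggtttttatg

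RefSeq windows of 300 bases, from 250 before to 50 after a start, were matched for 9 members. The Jund window, chr8:70697489-70697788, lies wholly before the GENCODE start of the gene and does not cover the promoter of that annotation, and the Junb window starts from a RefSeq position outside the GENCODE gene. The only Atf3 window, chr1:191183284-191183583, belongs to a start inside the GENCODE gene, whose 5′ end is at chr1:191218039. Among all 32851 such windows 1.79% held the intact CRE on either strand, and among the members only Maff did, 29 bases before its second start. The element with 1 changed letter was present in 11% of windows and in 4 members. It read TTACGTCA at 10 bases before the Atf3 start, TGACATCA at 45 before the Jun start, and TGACGACA at 129 before the Fos start, and the third start of Maff held TGACATCA at 45 bases before it. The core (TGACG or its complement CGTCA, including copies inside a longer element) was in 20.8% of windows and in 6 members, and TATAAA on either strand was in 13.6% of windows and in 2 members, Fos and Junb. The exact letters of the AP-1 site, TGAGTCA or TGACTCA, were in 5.2% of windows and in 0 of the windows of these 9 members. Variants of the AP-1 site were not searched as such. The CArG box, bound by serum response factor, was in 1.63% of windows and in 0 members. These are matches of letters in short windows, not measured binding. Sites more than 250 bases before a start were not searched, so a count of 0 does not cover them.

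All 10 genes lie on GRCm38 as annotated in GENCODE release M21. Fos spans chr12:85473890-85477273 with 4 exons, and Batf follows on the same chromosome at chr12:85686669-85709087. Atf3 spans chr1:191170296-191218039, Maff chr15:79346621-79359076, Fosl2 chr5:32135801-32157842, Fosb chr7:19302696-19310051 and Fosl1 chr19:5447547-5455946. Jun at chr4:95049034-95052222 and Jund at chr8:70698949-70700616 have 1 exon each, and Junb spans chr8:84974484-84978718. Rapid decay of such transcripts is classically tied to the pentamer ATTTA in the 3′ untranslated region. The Fos region held 4 copies, 4.91 per kilobase, against a median of 1.18 per kilobase over 20199 genes, and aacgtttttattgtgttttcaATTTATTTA is the 30-base stretch that holds 2 of them, in capitals. Maff and Jun also held 4 copies, Fosl2 held 8, Atf3 held 3 and Batf held 0. At least 1 copy was present in 63.1% of genes, so its presence does not set the members apart.

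The libraries held 67229863 to 118877267 deposited counts, of which ribosomal RNA loci took 30.6 to 55.8%. Levels are given in counts per 1000000 counts (CPM), scaled with TMM factors of edgeR, and levels of different genes are compared only as CPM per kilobase of exon. At this depth Fosb, Fosl1, Batf and Atf3 were near the limit of counting in control liver: Batf had 1 count in control 1, Fosb 3 in its lowest control library and Atf3 4 in its lowest. The hepatocyte markers summed to 38784 to 55953 CPM in the control libraries, 18242 to 47715 in the CCl4 libraries and 32988 to 44384 in the CCl4_PTH libraries.

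CCl4 liver differed from control liver in 7 of the 10 members, all of them higher. A gene was called at an adjusted p under 0.05 in the edgeR quasi-likelihood test, with adjustment over all tested genes, and by that rule 47.4% of all genes were called in this comparison, 26.3% as higher and 21.2% as lower. The 7 were Atf3, Batf, Fos and the other Fos subunits, and Jun. Junb, Jund and Maff were not called. The median difference of the members was 1.44 on the log2 scale, against 0.05 over all tested genes. For 5 members the 6 CCl4 libraries lay wholly above the 6 controls, as did 14.8% of all genes, and for 0 members wholly below them, as did 11.3%.

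With Pien Tze Huang on top of CCl4, 3 of the 10 members fell relative to CCl4 alone: Atf3, Jun and Fos. In this comparison 12.1% of all genes were called, 7.1% as higher and 4.95% as lower. All 10 members had a negative log2 difference, with a median of -0.99 against -0.03 over all tested genes. Of the 10, 6 had an unadjusted edgeR p under 0.05. The largest of these 6, 0.0399 for Fosl1, held place 5458 of the 21840 tested genes by p, so at least 5458 genes were under 0.05. For 1 member, Atf3, the 6 treated libraries lay wholly below the 6 CCl4 libraries, as did 1.87% of all genes, and for 0 members did they lie wholly above, as did 2.2% of all genes. Compared with control, the treated livers remained higher in Atf3, Batf and Fosl2 and were lower in Maff, which makes 3 higher and 1 lower of 10. With TMM scaling 27.7% of all genes were called in this comparison, 17.4% higher and 10.3% lower. The member counts were 6 and 0 with library sizes alone, with Fos, Fosl1 and Jun also called. That scaling called 9559 of the 21840 tested genes higher and 353 lower. For 2 members, Atf3 and Batf, the treated libraries lay wholly above the controls, as did 9.79% of all genes, and for 0 members wholly below, as did 4.67%. Both treated comparisons rest on the same 6 treated libraries, and the comparisons with CCl4 share the 6 CCl4 libraries. In a bulk tissue, fewer cells of a type and less RNA per cell cannot be told apart, which holds for every difference given here.

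**Figure D1:**
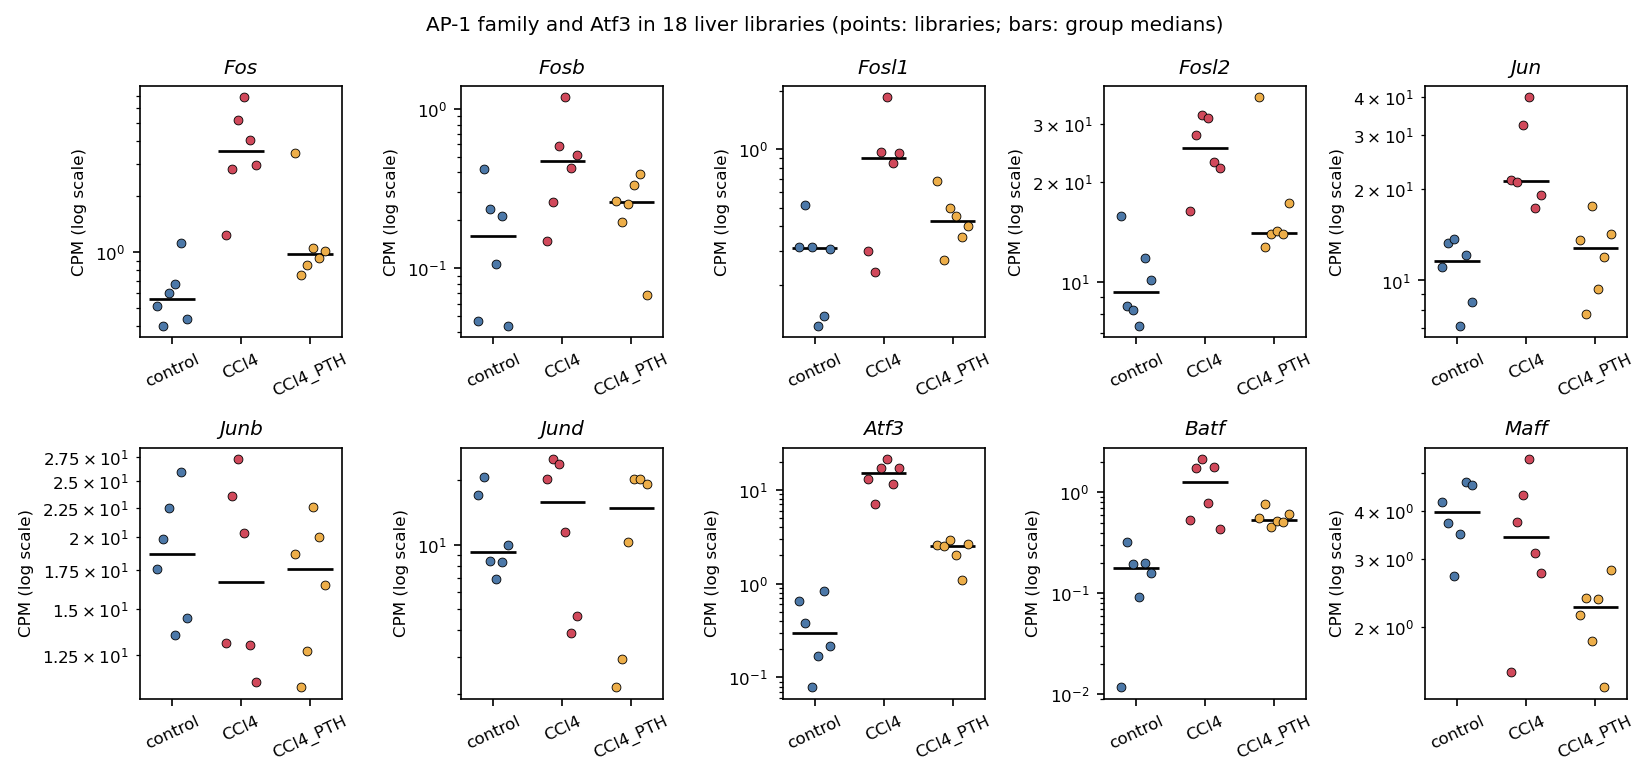
Level of each of the 10 genes in every library, in CPM on a log axis with its own range in each panel. Points are libraries, colours are the 3 groups, and bars are group medians. Atf3 has 3 separate clouds, with controls at 0.0781 to 0.825 CPM, CCl4 at 6.99 to 21.3 and CCl4_PTH at 1.08 to 2.92, while Junb groups lie on top of each other.

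Atf3 encodes a stress-induced member of the ATF/CREB family that pairs with Jun proteins and can repress transcription as a homodimer. Its level in control liver ran from 0.0781 to 0.825 CPM, with a median of 0.299. In CCl4 liver it ran from 6.99 to 21.3 CPM with a median of 15.1, and in CCl4_PTH liver from 1.08 to 2.92 with a median of 2.53. The lowest CCl4 library thus stood above the highest treated library, and the lowest treated library above the highest control, so none of the 3 groups overlapped. The log2 difference between CCl4 and control was 5.19 ± 0.44 (SE), 36.6-fold, with an edgeR adjusted p of 1.03e-07, which ranked Atf3 at place 118 of the tested genes by p.

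With Pien Tze Huang the level lay between those of the other groups. The log2 difference from CCl4 was -2.67 ± 0.38, 6.35-fold lower, with an edgeR adjusted p of 0.000538, at place 52 by p. Relative to control the treated livers were still 5.77-fold higher, a log2 difference of 2.53 ± 0.41 with an adjusted p of 0.000225. Per kilobase, Atf3 was the seventh of the 10 members in control liver, at a mean of 0.180 CPM. In CCl4 liver it reached 6.77 CPM per kilobase, near Jun at 7.90, Junb at 7.86 and Jund at 8.94, which were the highest 3. In the treated livers it stood at 1.06 CPM per kilobase, behind those 3 and Fosl2. Leaving out any 1 library, or any other alternative that was run, kept all 3 Atf3 differences past the threshold.

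Fos, the founding Fos subunit, was at 0.400 to 1.11 CPM in controls with a median of 0.558. CCl4 libraries held 1.24 to 6.84 CPM with a median of 3.50, all above the highest control. In the treated group 5 libraries lay between 0.757 and 1.06 CPM, below every CCl4 library, and CCl4_PTH 1 stood apart at 3.43. The log2 difference between CCl4 and control was 2.62 ± 0.44, 6.16-fold, with an edgeR adjusted p of 7.59e-05. Between treated and CCl4 livers it was -1.52 ± 0.41, 2.86-fold lower, with an adjusted p of 0.0218. That second call is a narrow one. Without CCl4_PTH 1 the difference was -2.03 with an adjusted p of 0.00068, but the adjusted p was 0.0533 without CCl4 4, 0.0508 without CCl4_PTH 3, 0.0518 without CCl4_PTH 6 and 0.0578 without CCl4_PTH 7. It was 0.0513 when only the 2 groups were fitted.

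Whether Fos in treated liver still exceeded control liver was not settled by these libraries. The log2 difference was 1.10 ± 0.42 with an edgeR adjusted p of 0.0578, and 1 of 6 treated libraries was above all controls. Without CCl4_PTH 1 it was 0.55 with an adjusted p of 0.255, without control 5 the adjusted p was 0.0331 and without CCl4 1 it was 0.0396, and it was 0.0298 by DESeq2, 0.049 with only the 2 groups and 0.00628 with library sizes alone.

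Fosl2, which encodes Fra-2, was the most abundant Fos subunit per kilobase in every group, at a mean of 1.06 CPM per kilobase in control, 2.63 in CCl4 and 1.86 in CCl4_PTH liver. Control libraries held 7.35 to 15.8 CPM with a median of 9.30, and CCl4 libraries 16.4 to 32 with a median of 25.4. Treated libraries lay between 12.7 and 17.3 CPM, except CCl4_PTH 1 at 36.1, which was above every CCl4 library. CCl4 and control did not overlap, and the log2 difference was 1.3 ± 0.26, 2.47-fold, with an edgeR adjusted p of 0.00041. Between treated and CCl4 livers it was -0.50 ± 0.25 with an adjusted p of 0.213, and -0.79 with an adjusted p of 0.00669 without CCl4_PTH 1. With all libraries the voom test gave -0.71 with an adjusted p of 0.00894. Relative to control, treated livers were 1.75-fold higher, a log2 difference of 0.81 ± 0.25 with an adjusted p of 0.0239. This call was lost without CCl4_PTH 1, where the difference was 0.48 with an adjusted p of 0.0652, and also without control 2 (0.0553), control 3 (0.056) or control 4 (0.0566).

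Fosb and Fosl1 (Fra-1) were scarce. Fosb was at 0.0434 to 0.419 CPM in controls with a median of 0.16, at 0.148 to 1.18 in CCl4 with a median of 0.47, and at 0.0681 to 0.39 in CCl4_PTH with a median of 0.26. The groups overlapped, with 4 of 6 CCl4 libraries above all controls and the other 2 inside their range. Its log2 difference between CCl4 and control was 1.58 ± 0.57, 2.99-fold, with an edgeR adjusted p of 0.0282, lost without CCl4 5 (adjusted p 0.108) and without control 1 (0.0624), control 4 (0.0626) or control 8 (0.0639). The voom test gave 0.0504. In controls only 3 of 6 libraries had at least 10 Fosb counts.

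Fosl1 was at 0.122 to 0.514 CPM in controls with a median of 0.308, at 0.233 to 1.85 in CCl4 with a median of 0.902, and at 0.268 to 0.681 in CCl4_PTH with a median of 0.426. CCl4 libraries fell apart, with CCl4 1 and CCl4 2 inside the control range and the other 4 above it. The log2 difference was 1.60 ± 0.45, 3.03-fold, with an edgeR adjusted p of 0.00673. Neither gene passed the test between treated and CCl4 livers: Fosb differed by -1.05 ± 0.54 with an adjusted p of 0.22, and Fosl1 by -0.96 ± 0.43 with an adjusted p of 0.16. Against control they differed by 0.53 ± 0.57 and 0.64 ± 0.45, also not called, although library sizes alone gave 1.13 for Fosl1 with an adjusted p of 0.0412. Exons of Fosl1 share bases with Ccdc85b on the other strand, which averaged 0.665, 0.311 and 0.731 CPM in control, CCl4 and CCl4_PTH liver and was not called. Reads from the shared bases cannot be told apart where counting ignores strand, and no source used here gives the strand setting.

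**Figure D2:**
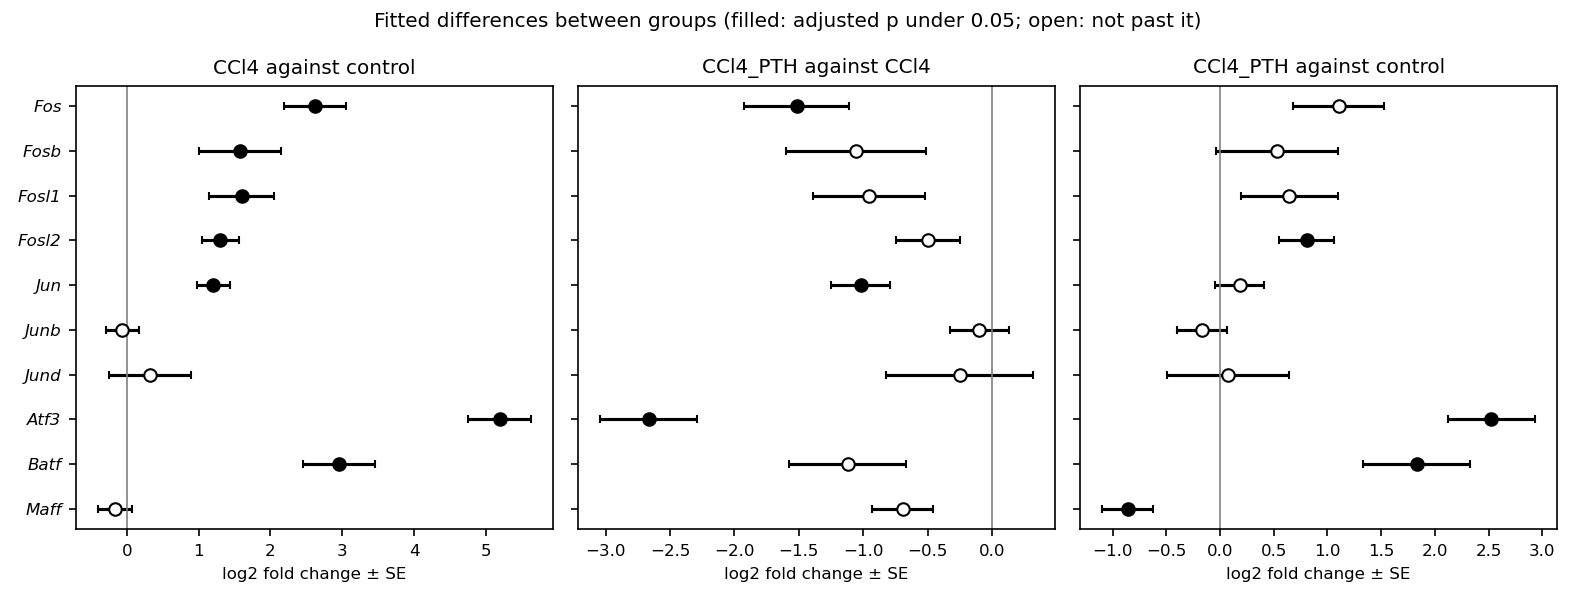
Fitted log2 difference of each of the 10 genes in the 3 comparisons, with its standard error as a bar; filled points have an edgeR adjusted p under 0.05. In CCl4 against control 7 points are filled and all lie to the right of 0, from Jun at 1.20 to Atf3 at 5.19. In CCl4_PTH against CCl4 all 10 points lie to the left of 0 and 3 are filled.

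Jun, the founding Jun subunit and a common partner of Fos proteins, was at 7.09 to 13.7 CPM in controls with a median of 11.6. CCl4 libraries held 17.3 to 39.9 CPM with a median of 21.2, above all controls. Treated libraries held 7.74 to 17.6 CPM with a median of 12.8, and 5 of 6 were below every CCl4 library, CCl4_PTH 3 at 17.6 being the exception. The log2 difference was 1.20 ± 0.23 between CCl4 and control, 2.30-fold, with an edgeR adjusted p of 0.000313. Between treated and CCl4 livers it was -1.02 ± 0.23, 2.03-fold lower, with an adjusted p of 0.0087. No difference from control was detected in treated livers, at 0.18 with a 95% interval from -0.26 to 0.63 and an adjusted p of 0.596. Scaling by library size alone gave 0.66 with an adjusted p of 0.0181. The 95% intervals of this report are normal ones built from the SE, somewhat narrower than the quasi-likelihood test would give. The antisense gene Junos, which shares exon bases with Jun, averaged 0.609 to 0.807 CPM over the groups and was not called in any comparison.

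Junb, a Jun subunit that often counteracts Jun, was at 13.5 to 25.9 CPM in controls, 11.2 to 27.3 in CCl4 and 11 to 22.5 in CCl4_PTH, with medians of 18.7, 16.7 and 17.6. The 3 ranges overlapped almost completely. Its log2 difference between CCl4 and control was -0.07 with a 95% interval from -0.52 to 0.38, and between treated and CCl4 livers -0.10 with an interval from -0.55 to 0.35. The sign for CCl4 against control was positive, at 0.55, with library sizes alone. Junb shares exon bases with Prdx2 on the other strand, which averaged 42.9, 36.1 and 42.3 CPM in control, CCl4 and CCl4_PTH liver and fell by 0.25 on the log2 scale with CCl4 (edgeR adjusted p 0.0373), so the Junb value is uncertain to the extent that reads were shared.

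Jund, the Jun subunit that most resting cells express, varied widely inside the groups despite at least 253 counts in every library. It was at 6.91 to 20.8 CPM in controls with a median of 9.21, at 3.89 to 25.2 in CCl4 with a median of 15.9, and at 2.15 to 20.3 in CCl4_PTH with a median of 14.8. Its log2 difference was 0.32 between CCl4 and control (95% interval -0.80 to 1.45), -0.25 between treated and CCl4 livers (-1.37 to 0.87) and 0.07 between treated and control livers (-1.05 to 1.20). These intervals are too wide to tell whether Jund changed.

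The libraries with little Jund were CCl4 7 at 3.89 CPM, CCl4 8 at 4.65, CCl4_PTH 1 at 2.15 and CCl4_PTH 2 at 2.91. The same libraries were low in transcripts rich in G and C. The Jund transcript is 67.1% G and C, at percentile 99.8 of 20199 genes, whose median is 49.4%. Over the 608 most GC-rich of 12178 genes, the median deviation of a library from its group mean was -0.161 on the log2 scale in CCl4 7, -0.0931 in CCl4 8, -0.205 in CCl4_PTH 1 and -0.0998 in CCl4_PTH 2. In the 6 libraries with Jund at 20.3 CPM or more it was 0.112 in CCl4 1, 0.159 in CCl4 2, 0.0234 in CCl4 4, 0.0819 in CCl4_PTH 6, 0.113 in CCl4_PTH 7 and 0.0523 in control 2. The deviation of Jund itself reached -2.05 in CCl4_PTH 1 and -1.61 in CCl4_PTH 2. The part of base composition in the Jund values was not tested. Junb, at 62.6% G and C, stands at percentile 98.7. Its deviation was -0.394 in CCl4 7, -0.610 in CCl4 8 and -0.578 in CCl4_PTH 2, but 0.19 in CCl4_PTH 1. Fos at 51.9% and Atf3 at 52.2% are nearer the median.

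**Figure D3:**
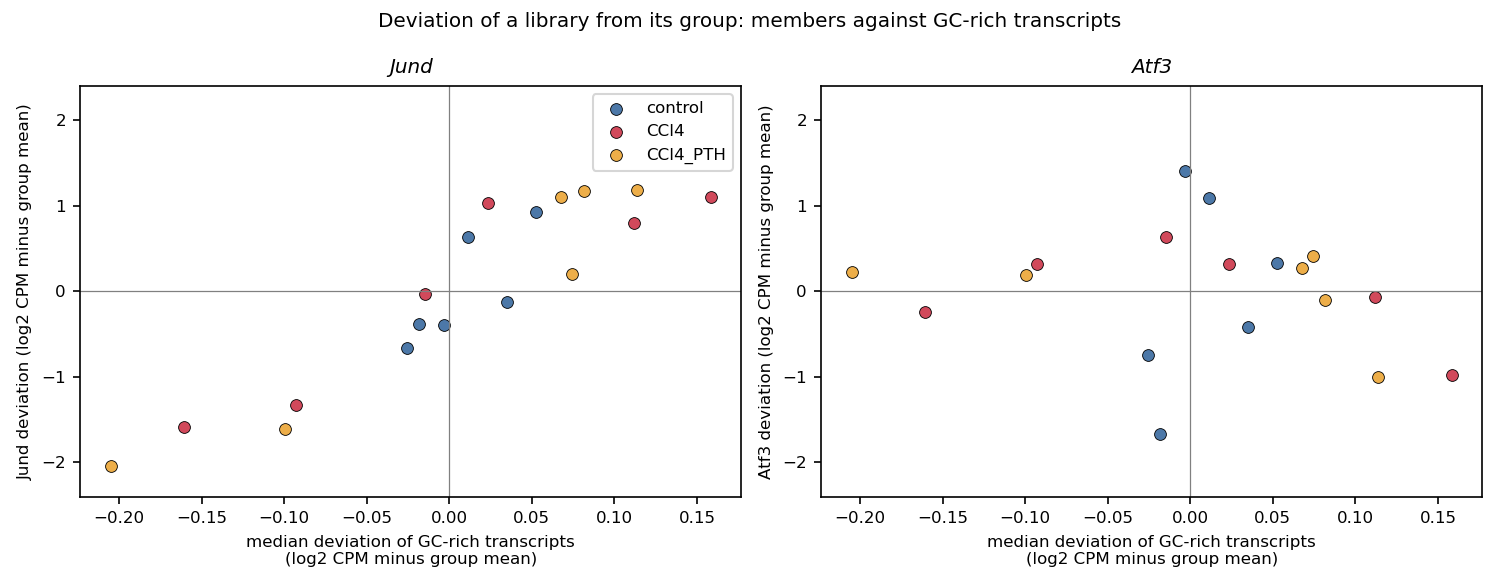
Deviation of each library from its group mean, for Jund (left) and Atf3 (right), against the median deviation of 608 GC-rich transcripts, all as log2 CPM. Points are libraries, coloured by group. Libraries that are low in GC-rich transcripts, such as CCl4_PTH 1 at -0.205 and CCl4 7 at -0.161, are also the lowest in Jund, and no such order is seen for Atf3.

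Batf encodes a factor without a transactivation domain that pairs with Jun proteins and is known chiefly from lymphocytes and dendritic cells. It was at 0.0116 to 0.324 CPM in controls with a median of 0.177, at 0.429 to 2.15 in CCl4 with a median of 1.27, and at 0.455 to 0.770 in CCl4_PTH with a median of 0.538. Every CCl4 and every treated library was above all controls. CCl4 libraries fell into 3 high values, 1.76 to 2.15 CPM in CCl4 2, CCl4 4 and CCl4 7, and 3 of 0.429 to 0.777. The log2 difference between CCl4 and control was 2.95 ± 0.51, 7.74-fold, with an edgeR adjusted p of 9.87e-05. Treated livers were 3.56-fold above control, at 1.83 ± 0.50 with an adjusted p of 0.0101. Their difference from CCl4, -1.12 ± 0.45, was not called, with an adjusted p of 0.112.

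Maff is a small Maf protein, which also lacks a transactivation domain and pairs with factors such as Nrf2. It was at 2.71 to 4.73 CPM in controls with a median of 3.96, at 1.53 to 5.44 in CCl4 with a median of 3.42, and at 1.40 to 2.81 in CCl4_PTH with a median of 2.25. The treated livers held the lowest levels, with 5 of 6 below all controls. The log2 difference from control was -0.86 ± 0.24, 1.82-fold lower, with an edgeR adjusted p of 0.0118, and it fell short with library sizes alone, at -0.38 with an adjusted p of 0.274. The difference from CCl4 was -0.69 ± 0.24 with an adjusted p of 0.0636, which became 0.0107 without CCl4 1, the CCl4 library with the lowest Maff, and 0.0262 by DESeq2. CCl4 and control differed by -0.17 with a 95% interval from -0.63 to 0.30.

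Because Fos proteins need a Jun partner, the make-up of the 7 Fos and Jun transcripts was also described, as shares of their summed CPM per kilobase. The sum was 20.3 ± 4.80 CPM per kilobase (SD, n = 6) in control, 29.5 ± 10.2 in CCl4 and 21.4 ± 6.35 in CCl4_PTH liver. Fos subunits made up 5.14 to 8.59% of it in controls and 8.85 to 25.4% in CCl4 libraries, so these groups did not overlap. Treated libraries ran from 7.76 to 28.9%, with a median of 10.2% against 17.4% in CCl4 and 8.32% in control. The highest treated share was that of CCl4_PTH 1, where Fosl2 alone took 19.4%. Junb and Jund together supplied most of the pool in controls, with means of 41.2% and 34.3%. In CCl4 liver their means were 26.9% and 28.1%, and Jun stood at 27.7% against 17% in control and 19.3% in treated liver. These are shares of transcripts and were not tested, and a low Jund in a library raises every other share in it.

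**Figure D4:**
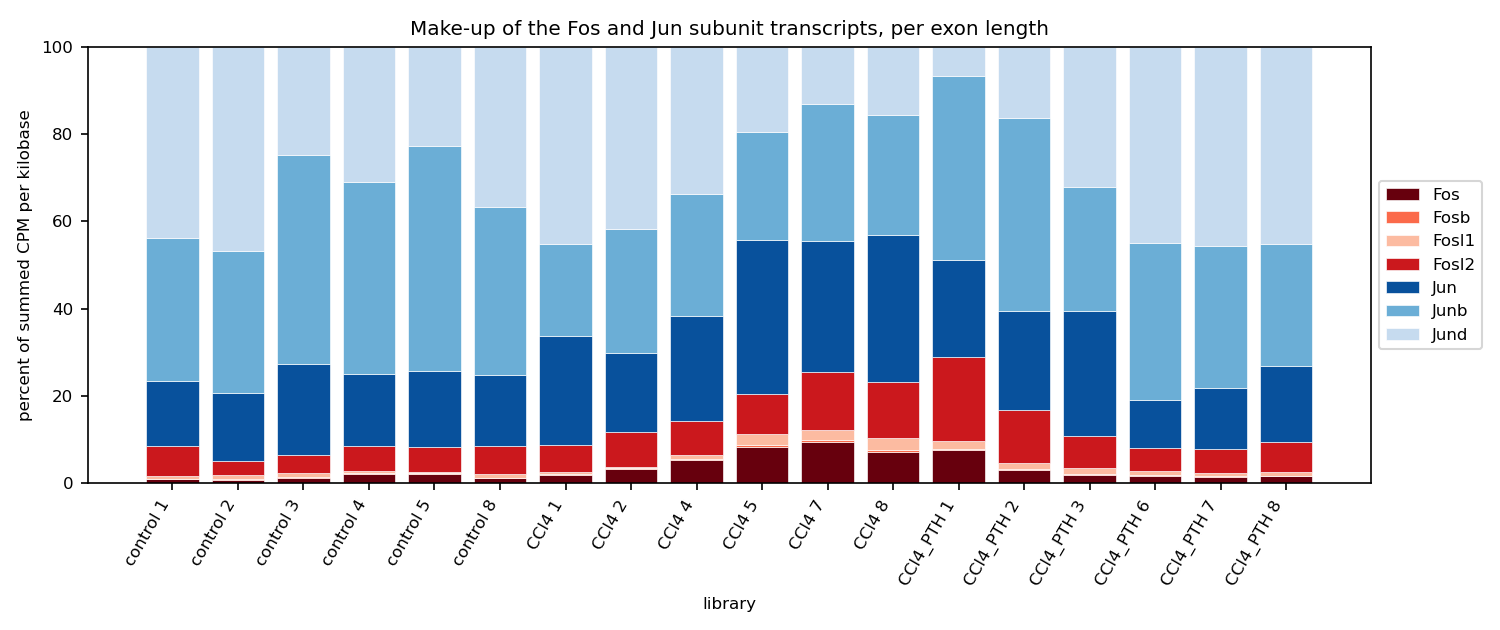
Make-up of the Fos and Jun subunit transcripts in each library, as percent of their summed CPM per kilobase. Red shades are Fos subunits and blue shades Jun subunits. Fos subunits take at most 8.59% in the controls, 8.85 to 25.4% in CCl4 libraries and 28.9% in CCl4_PTH 1.

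The members did not all peak in the same livers. CCl4 5 was the highest CCl4 library for 6 members (Fos, Fosb, Fosl1, Jun, Atf3 and Maff), CCl4 4 for 3 (Fosl2, Junb and Batf), and CCl4 2 for Jund. CCl4 1 was the lowest for 4 members, Fos, Fosb, Fosl2 and Maff, yet held 13.1 CPM of Atf3, well inside the group. CCl4_PTH 1 was the highest treated library for Fos, Fosl1 and Fosl2 and the lowest for Jund, while its Atf3, at 2.55 CPM, was near the group median of 2.53. The same library had the highest summed level of neutrophil markers in its group, 200 CPM against at most 23.4 in the other treated libraries, of acute phase genes, 23299 CPM against at most 2393, and of other immediate early genes, 267 CPM against at most 165. AP-1 target genes summed to 490 CPM in CCl4_PTH 1, against at most 298 in the other treated libraries. It was also the highest treated library for stellate cell and fibroblast (949 CPM), cholangiocyte (30.2) and hepatocyte markers (44384). For T cell, B and plasma cell, macrophage and endothelial markers it was the lowest, at 2.22, 7.02, 179 and 172 CPM. The ribosomal share of CCl4_PTH 1 was the lowest of all, 30.6%. The part of these in its Fos and Fosl2 levels was not tested.

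Markers of other cells moved with the groups as well. Of 7 measured neutrophil markers 7 were higher in CCl4 than in control liver, with summed levels of 1.78 to 4.17 CPM in control, 14.1 to 104 in CCl4 and 12.6 to 200 in CCl4_PTH, and with Ly6g and Mmp8 at 0 in all controls. T cell markers were higher for 9 of 10, at 2.24 to 4.60, 4.54 to 43.7 and 2.22 to 13.7 CPM, and B and plasma cell markers for 7 of 7, at 3.20 to 6.86, 9.74 to 24.8 and 7.02 to 31.8 CPM. Macrophage markers were higher for 5 of 7, at 77.4 to 122, 211 to 430 and 179 to 281 CPM. Stellate cell and fibroblast markers were higher for 6 of 7, at 126 to 157, 423 to 808 and 362 to 949 CPM, and cholangiocyte markers for 5 of 6, at 11.8 to 20.9, 24.2 to 36.0 and 19.6 to 30.2 CPM. Endothelial markers were higher for 3 and lower for 2 of 6, at 202 to 233, 184 to 222 and 172 to 278 CPM, and hepatocyte markers were lower for 2 of 8. With library sizes alone these counts were 4 and 0 for endothelial and 0 and 0 for hepatocyte markers. That scaling called 11275 of the 21840 tested genes higher and 1061 lower. Acute phase genes were higher for 5 of 8, at 1346 to 1711, 1907 to 4378 and 1771 to 23299 CPM. Apart from the 2 neutrophil genes, no marker of these lists was at 0 in every library of a group.

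Between treated and CCl4 livers, where Atf3, Jun and Fos fell, few of these markers were called. Of the neutrophil, T cell, B and plasma cell, stellate cell, cholangiocyte and hepatocyte markers 0 passed the edgeR test. At least 5458 of the 21840 tested genes had an unadjusted edgeR p under 0.05 in this comparison. At an unadjusted p under 0.05 these lists held 4 lower T cell, 1 lower stellate cell, 1 higher and 1 lower B or plasma cell, 2 higher hepatocyte, 0 neutrophil and 0 cholangiocyte markers. DESeq2 called 3 T cell markers lower and voom called 2 hepatocyte markers higher, and each called 0 of the others, although DESeq2 gave no adjusted p for 1 neutrophil and 1 hepatocyte marker. By edgeR 2 of 7 macrophage markers were lower and 1 higher, and 1 of 6 endothelial markers was higher, while with library sizes alone 0 of either list were called higher. Of 8 acute phase genes edgeR called 0, with 4 higher at an unadjusted p under 0.05, voom called 1 lower, and DESeq2 called 0 but gave no adjusted p for 6. The median log2 difference was -1.37 over T cell, -0.54 over macrophage, -0.47 over B and plasma cell, -0.19 over stellate cell, -0.19 over cholangiocyte, 0.02 over endothelial and 0.44 over hepatocyte markers. It was 0.38 over neutrophil markers and 0.96 over acute phase genes by edgeR, but -1.07 and -0.06 by voom. The part of cell make-up in the differences of the members was not tested.

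The kinases that switch on AP-1 genes showed no common direction at the level of RNA. Of 23 measured kinases of the MAP kinase cascades, 7 were higher and 8 lower in CCl4 than in control liver, with a median log2 difference of -0.09. With library sizes alone 14 were higher and 0 lower, so the split depends on the scaling. With TMM scaling 26.3% of all tested genes were higher and 21.2% lower in this comparison. With library sizes alone 11275 of the 21840 tested genes were higher and 1061 lower. Between treated and CCl4 liver the TMM shares were 7.1% and 4.95%, and library sizes alone called 476 genes higher and 621 lower. The lists that follow stand beside the same values. Map3k1, which feeds the JNK cascade, rose from 18.3 to 36.8 CPM (log2 difference 1.0 ± 0.11, edgeR adjusted p 1.08e-06), and Map3k8, which feeds the ERK cascade, rose from 2.66 to 7.86 CPM (1.57 ± 0.23, adjusted p 2.33e-05). Mapk7, which encodes ERK5, rose by 1.52 ± 0.17 on the log2 scale with CCl4 and differed by -0.60 ± 0.17 between treated and CCl4 liver (adjusted p 0.0256). Map2k6, an activator of p38, went the other way, with -0.98 ± 0.35 in CCl4 and 1.31 ± 0.36 in treated relative to CCl4 liver (adjusted p 0.0294 and 0.0233). With treatment 1 of the 23 was higher and 3 were lower than with CCl4, and 0 and 0 with library sizes alone (1 and 4 at an unadjusted p under 0.05), while DESeq2 and voom each called 1 and 3.

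Of 15 genes that restrain MAP kinase signalling, the dual-specificity phosphatases and the Sprouty and Spred proteins, 8 were higher and 2 lower in CCl4 liver, with a median log2 difference of 0.61 (13 and 0 with library sizes alone). Dusp5, a nuclear ERK phosphatase, rose from 0.555 to 4.59 CPM (log2 difference 3.04 ± 0.41, edgeR adjusted p 8.46e-06) and stood at 1.40 in treated liver (-1.71 ± 0.38 relative to CCl4, adjusted p 0.0079). On the log2 scale Dusp2 rose by 2.99 ± 0.56 and Dusp8, which acts on JNK and p38, by 3.63 ± 0.66. Dusp4 and Dusp10 were lower in treated than in CCl4 liver, at -1.17 ± 0.29 and -0.72 ± 0.21 (adjusted p 0.0136 and 0.0324). Relative to CCl4, 4 of the 15 were lower and 1 higher in treated liver, and 3 and 0 with library sizes alone.

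Of 11 factors that bind the promoters of Fos and Jun, 6 were higher and 1 lower in CCl4 liver, with a median log2 difference of 0.25 (10 and 0 with library sizes alone). On the log2 scale Mef2c rose by 1.20 ± 0.15, Mrtfa, a coactivator of serum response factor, by 1.0 ± 0.14, and Elk3 by 0.69 ± 0.11 (edgeR adjusted p 2.91e-06, 9.08e-06 and 7.1e-05). In treated relative to CCl4 liver 2 of the 11 were lower, Mrtfa with a log2 difference of -0.53 ± 0.13 and Mef2d with -0.35 ± 0.09 (adjusted p 0.0159 and 0.0168). With library sizes alone 0 of the 11 were called (3 lower at an unadjusted p under 0.05), while DESeq2 and voom each called 2 lower.

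Among 21 other basic leucine zipper factors that pair with or compete with AP-1, 9 were higher and 6 lower in CCl4 liver, and 14 and 0 with library sizes alone. Of all tested genes 26.3% were higher and 21.2% lower with TMM scaling, and 11275 and 1061 of 21840 with library sizes alone. Ddit3, which encodes the stress factor CHOP, rose from 2.42 to 9.15 CPM and was at 3.10 in treated liver. Its log2 differences were 1.92 ± 0.15 and -1.56 ± 0.15 (edgeR adjusted p 2.85e-08 and 8.41e-06). Batf3, the relative of Batf needed for a class of dendritic cells, had log2 differences of 2.56 ± 0.42 and -1.47 ± 0.39 (adjusted p 6.44e-05 and 0.0201). Mafg, another small Maf, fell from 55.8 to 32.7 CPM with CCl4 and was at 44.9 in treated liver, with log2 differences of -0.77 ± 0.11 and 0.46 ± 0.11 (adjusted p 2.08e-05 and 0.0136). In treated relative to CCl4 liver 4 of the 21 were lower, Atf6 among them with a log2 difference of -0.47 ± 0.11, and 1 was higher. With library sizes alone 5 were lower and 0 higher.

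The genes commonly named as AP-1 targets were higher in CCl4 liver for 17 of 18 measured and lower for 1, of 20 in the list. The list had a median log2 difference of 2.96. That median was also 2.96 with the 2 measured genes that were at 0 in all controls (Mmp3 and Lif) set to a bound of 3 counts over the control group. Mmp12, the macrophage elastase, went from 0.313 to 53.4 CPM (log2 difference 7.43 ± 0.63, edgeR adjusted p 1.59e-07), and Cd44, an adhesion receptor, from 7.84 to 53.1 CPM (2.76 ± 0.26, adjusted p 2.39e-07). The gene that was lower was Vegfa, at 93.4 and 46.9 CPM.

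In treated relative to CCl4 liver 6 of the 18 targets were lower and 1, Vegfa, was higher, with a median log2 difference of -0.82. With library sizes alone 6 were lower and 0 higher, and voom called 9 lower and 1 higher. Mmp12 fell to 11.8 CPM (log2 difference -2.17 ± 0.47, edgeR adjusted p 0.0077), Hmox1, which encodes the stress enzyme heme oxygenase, from 62.0 to 21.6 (-1.52 ± 0.31, adjusted p 0.00547), and Cd44 to 26.1 (-1.03 ± 0.24, adjusted p 0.0113). Relative to control, 16 of the 18 were still higher in treated liver, with a median log2 difference of 2.81, while 17.4% of all genes were. Voom called 12 of the 18 higher, with a median of 2.19. Whether these genes were driven by AP-1 here was not tested.

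Immediate early genes outside the family moved as well. Of 21 measured, 16 were higher and 2 lower in CCl4 than in control liver (median 1.55; 18 and 0 with library sizes alone), and 8 were lower and 0 higher in treated than in CCl4 liver (median -0.74). At an unadjusted edgeR p under 0.05 the latter were 14 and 0, while at least 5458 of all 21840 tested genes were under it. DESeq2 and voom called 10 and 14 of the list lower and 0 higher. Scaling by library sizes alone left 5 lower and 0 higher. Nr4a3, an orphan nuclear receptor, was at 0.129, 2.4 and 0.389 CPM in control, CCl4 and CCl4_PTH liver (log2 differences 4.18 ± 0.69 and -2.62 ± 0.61, edgeR adjusted p 7.26e-05 and 0.0111). Ier5 was at 2.0, 9.25 and 4.77 CPM (log2 differences 2.21 ± 0.19 and -0.95 ± 0.18, adjusted p 7.27e-08 and 0.00317), and Klf4 at 1.56, 5.2 and 2.66 CPM (log2 differences 1.74 ± 0.23 and -0.97 ± 0.22, adjusted p 6.6e-06 and 0.00926). By summed level CCl4_PTH 1 again stood above the other treated libraries, at 267 CPM.

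**Figure D5:**
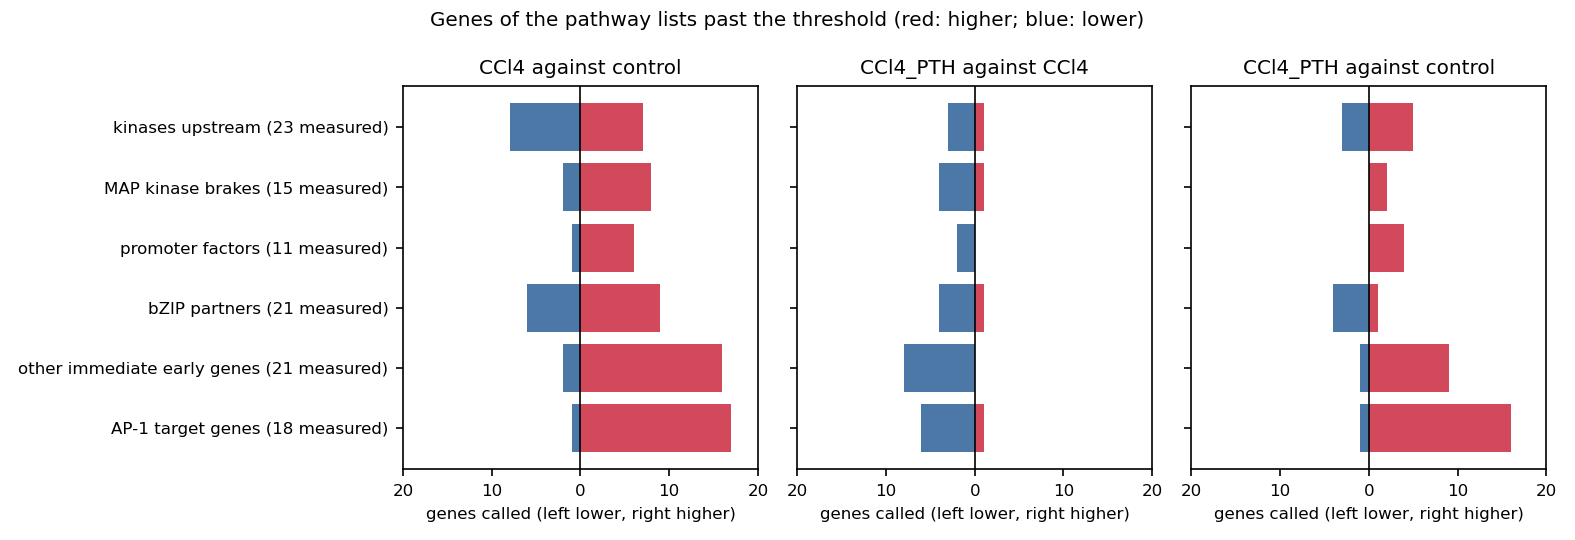
Number of genes called in each list around the AP-1 family, for the 3 comparisons; red bars to the right count genes that were higher and blue bars to the left genes that were lower. AP-1 target genes show 17 higher and 1 lower in CCl4 against control, 6 lower and 1 higher in CCl4_PTH against CCl4, and 16 higher and 1 lower in CCl4_PTH against control.

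Genes whose levels varied most like a member from liver to liver were found by Spearman's rho over the 18 libraries after each group's mean was subtracted, among 11965 genes with a mean of at least 1 CPM. These are the highest of many values and are given as a description. The libraries differed in depth and in the level of GC-rich transcripts, and the part of these in the values was not tested. For Atf3 they were Cnot4 (0.77), Ppp1r15a (0.77), which encodes the stress phosphatase subunit GADD34, and Elavl1 (0.75). For Fos they included Ccdc125 (0.86) and Fam114a1 (0.83), and for Jun they were Hmces (0.90), Ski (0.76) and Foxp4 (0.75). Junb was closest to Foxp4 and Id1 (both 0.80), and Batf to the immune receptor gene Pirb (0.92), Prkcb (0.91) and Gng2 (0.91). Jund was closest to the histone genes Hist1h3e (0.96) and Hist2h2ac (0.95) and to Irf2bpl (0.95). Their transcripts are 53.2%, 61.2% and 60% G and C, in that order. The other 9 members were left out of each search.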

How the data were processed

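Liver RNA from 6 mice a group was depleted of ribosomal RNA and sequenced as paired reads, per the labels' protocols. The authors deposited 1 table of estimated counts per gene, not normalized, as its values show. The submitters' processing notes name HISAT2 2.2.1 and Bowtie2 2.5.1 (aligners), StringTie 2.1.5, cutadapt 4.2, FastQC 0.11.9 and GRCm38, without saying what each did; no source used here gives the counter, annotation or strand setting. Of 54752 gene IDs, 54723 matched GENCODE M21.

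Counts were rounded. edgeR 4.0.16 (R 4.3.3) filtered low genes (filterByExpr, minimum count 10), scaled by TMM and fitted 1 quasi-likelihood model to 18 libraries in 3 groups, with Benjamini-Hochberg adjustment over 21840 genes. The script was tested on simulated data. Libraries come from separate mice, and no 2 of a group agreed within sampling noise.

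The 10 members and 15 other lists were chosen with earlier results of these data known. Of each list, up to 3 genes with the smallest p in CCl4 against control and in CCl4_PTH against CCl4 were named, and for each member up to 3 genes with the highest rho to it (1 such gene is not reported here); genes at 0 in all controls were named after their values were seen. Alternatives were library sizes alone, TMM without ribosomal RNA loci, DESeq2 1.42.0, limma voom 3.58.1, no filter, only the compared groups, a replicate block and leaving out libraries.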

Additional observations from a re-analysis of the deposited data

Results flagged for a closer look

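Each member was checked in each group of 6 for a library far from the rest, by Dixon's test at the 95% level; 30 groups were checked, of which chance picks about 1 in 20, and 2 were picked. Fos in CCl4_PTH 1, at 3.43 CPM, stood apart from 0.757 to 1.06 CPM in the other 5 treated libraries. Fosl2 in the same library, at 36.1 CPM, stood apart from 12.7 to 17.3 CPM. Without CCl4_PTH 1, the edgeR log2 difference between treated and CCl4 livers was -2.03 for Fos (adjusted p 0.00068) and -0.79 for Fosl2 (adjusted p 0.00669). Of the 10 members 4 were called in place of 3, and of all tested genes 3854 in place of 2632.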

How the results depend on the processing

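Of 210 member differences recomputed with other settings of the analysis, 191 kept their direction and their side of the threshold, 8 fell short of it, 7 newly passed it and 4 changed sign; of 540 with 1 library left out these were 513, 12, 4 and 11, and of 60 with 2 settings chosen after seeing the data (controls 1 and 8 left out, with or without CCl4_PTH 1) 56, 3, 1 and 0. No called difference changed sign. Library sizes alone moved the median of all tested genes from 0.05 to 0.63 for CCl4 against control, from -0.03 to -0.13 for CCl4_PTH against CCl4 and from 0.04 to 0.51 for CCl4_PTH against control, and the share of calls that were higher from 55.3 to 91.4%, from 58.9 to 43.4% and from 62.8 to 96.4%. With it Junb read 0.55 and Maff 0.40 in CCl4 against control, and Junb 0.32 in CCl4_PTH against control, all opposite in sign to the values reported.

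Genes called in CCl4_PTH against CCl4 numbered 2632, and 1097 with library sizes alone, 4167 by voom, 3819 by DESeq2, 4136 without controls 1 and 8 and CCl4_PTH 1, and 1509 to 3854 with 1 library left out (1523 without CCl4 4, 1598 without CCl4 7, 1704 without CCl4_PTH 6 and 1509 without CCl4_PTH 7). In CCl4_PTH against control they numbered 6051, and 9912 with library sizes alone. With 1 library left out, 6 to 7, 2 to 4 and 3 to 5 members were called in the 3 comparisons, Junb ran from -0.21 to 0.0086 (CCl4 against control) and from -0.19 to 0.056 (CCl4_PTH against CCl4), and Jund from -0.12 to 0.29 (CCl4_PTH against control). Fosb in CCl4 against control was also lost without controls 1 and 8 (adjusted p 0.134), and Maff in CCl4_PTH against control without these and CCl4_PTH 1 (0.0617). The causes were not tested.

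Library numbers did not pair the groups: the correlation of deviations was -0.209 to 0.0833 over 13 same-numbered pairs, and 0 of 17 libraries correlated best with its own number. With the number as a replicate block, 84 genes were called in CCl4_PTH against CCl4 and 3343 in CCl4_PTH against control. In the former 1 member, Atf3, was called, with adjusted p of 0.253 for Fos and 0.143 for Jun, and Jund read -0.054 in CCl4_PTH against control. Fosb (0.0576) and Fosl1 (0.0798) in CCl4 against control and Maff (0.0835) in CCl4_PTH against control also fell short. Counting depth limits Fosb, Fosl1, Batf and Atf3 in control liver.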
